A study of Homo sapiens with 20 samples.

Results

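The genes for making, cutting and sensing hyaluronan were followed in orthotopic tumors of OVCAR8, a human high-grade serous ovarian carcinoma line. They were the synthase genes HAS1, HAS2 and HAS3, the hyaluronidase genes HYAL1, HYAL2, HYAL3 and CEMIP, the receptor genes CD44 and HMMR, and the hyaluronan-binding proteoglycan gene VCAN. The genes were chosen by symbol, and 9 of the 10 listed were found among the 24196 genes of the table, while HAS1 was not analysed here. The tumors grew in NSG mice, an immunodeficient strain without mature T, B and NK cells that keeps mouse myeloid, stromal and vascular cells. OVCAR8 cells were implanted at the ovarian fat pad of mice aged 6 weeks, and the hosts of 4 tumors received PBS and those of 4 received sodium gluconate. By the study's methods, gluconate was given i.p. at 1 mg/kg each week for 35 days. All tumors thus shared the same cell line and host strain. By the study's figure legend, the implanted cells of both the PBS and the gluconate group carried sgNC and a luciferase tag. The other 12 libraries of the series, from cultured CHP1 and TMEM87A knockout cells and their controls, were not analysed here.

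Hyaluronan is a long unbranched sugar polymer of the extracellular matrix, built at the plasma membrane by synthases that join UDP-glucuronic acid and UDP-N-acetylglucosamine and push the chain out of the cell. Hyaluronidases cut it into fragments, and cells hold it and sense it through receptors of which CD44 is the best known. In the peritoneal cavity, hyaluronan coats the mesothelium, and CD44 on ovarian carcinoma cells is known to take part in their attachment to it. The study started from hyaluronan metabolism genes and then turned to CHP1, so these genes show where that starting pathway stood in gluconate-treated tumors.

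The level of each gene was measured by polyA RNA-seq and given as FPKM, the fragments of a gene scaled to its length and to the fragments of the library. FPKM values therefore allow levels to be compared between genes, as far as the gene lengths used and the counting hold. The steps between low values showed the whole fragments behind each value. PBS replicate 4 rested on 3953206 fragments and the other 7 libraries on 39325749 to 46551535, so that it was 9.95 to 11.8 times shallower. It had 15514 genes above 0 against 19991 to 20251. The main group differences are therefore given with and without it. Carcinoma markers were present, with PAX8 at 32.4 to 50.7 FPKM and KRT8 at 700 to 1051 FPKM, while MUC16 and KRT19 stayed at or under 0.00168 and 0.0357 FPKM. Summed fibroblast markers reached 130 to 185 FPKM in PBS replicates 1 to 3 and 165 to 192 FPKM in the gluconate tumors, but 45.3 FPKM in PBS replicate 4. Of those 9 markers, COL1A1 made up most of the sum, while LUM, PDGFRB, FAP and COL3A1 had means of 3.31, 2.64, 1.67 and 1.23 FPKM. THY1, COL1A2, DCN and PDGFRA had means of 0.0711, 0.0295, 0.0209 and 0.00438 FPKM. Endothelial markers summed to 0.257 to 0.707 FPKM, and adipocyte markers to 0 to 0.335 FPKM. The myeloid list summed to 20.8 to 28.9 FPKM, of which CD68, a lysosomal protein gene, gave 19.7 to 28.0 FPKM, while the defining genes PTPRC and CD14 stayed at or under 0.0165 and 0.0302 FPKM. The granulosa and theca list summed to 3.65 to 6.90 FPKM in the 7 deep libraries and to 22.9 FPKM in PBS replicate 4. FOXL2 alone gave 21.5 FPKM of the latter, while AMH was lowest there at 1.40 FPKM and the other 5 genes were at 0. AMH had a log2 fold change of -0.18, and of -0.47 without that library, with adjusted p of 0.838 and 0.802 from limma. The mesothelial list summed to 109 to 178 FPKM in all 8, nearly all from MSLN, which is also on the carcinoma list. LRRN4, BNC1 and CALB2 of that list had means of 3.51, 2.44 and 0.810 FPKM, and UPK3B and PKHD1L1 stayed at or under 0.172 and 0.011 FPKM. LRRN4 had a log2 fold change of -0.48, and of -0.59 without PBS replicate 4, with adjusted p of 0.740 and 0.802 from limma. In bulk tumors, fewer cells of a type and less RNA per cell cannot be told apart, and how mouse fragments were handled is not given in the sources used here.

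The promoters of 3 members are shown because the results turn on these genes. HMMR is compared with mitosis genes, VCAN had, with HAS2, a larger fitted difference than the other members, and HYAL2 had the highest level of the 4 hyaluronidase genes among the members. Promoters of 300 bases, 250 before and 50 from the gene start, were taken from RefSeq on GRCh38.p14 and covered 8 of the 9 genes, all but HAS2. Matches to 3 motifs on either strand are in capitals, namely CCAAT, the box bound by NF-Y, TTTGAA, the core of the cell cycle homology region, and GGAATG, the core bound by TEAD factors, the DNA-binding partners of YAP.
HMMR, chr5:163460382-163460681, plus strand: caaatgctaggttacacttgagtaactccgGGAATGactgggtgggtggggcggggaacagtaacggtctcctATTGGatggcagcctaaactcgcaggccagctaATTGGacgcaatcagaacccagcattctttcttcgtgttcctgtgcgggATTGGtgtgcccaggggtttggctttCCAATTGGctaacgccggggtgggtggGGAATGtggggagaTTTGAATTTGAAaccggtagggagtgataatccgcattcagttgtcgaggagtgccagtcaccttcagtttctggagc
VCAN, chr5:83471494-83471793, plus strand: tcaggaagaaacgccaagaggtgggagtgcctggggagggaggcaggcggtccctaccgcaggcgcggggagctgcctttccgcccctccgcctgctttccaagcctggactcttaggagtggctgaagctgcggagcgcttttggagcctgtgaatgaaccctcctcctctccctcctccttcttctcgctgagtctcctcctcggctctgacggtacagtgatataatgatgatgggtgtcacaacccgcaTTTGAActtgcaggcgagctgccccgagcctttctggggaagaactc
HYAL2, chr3:50322696-50322995, minus strand: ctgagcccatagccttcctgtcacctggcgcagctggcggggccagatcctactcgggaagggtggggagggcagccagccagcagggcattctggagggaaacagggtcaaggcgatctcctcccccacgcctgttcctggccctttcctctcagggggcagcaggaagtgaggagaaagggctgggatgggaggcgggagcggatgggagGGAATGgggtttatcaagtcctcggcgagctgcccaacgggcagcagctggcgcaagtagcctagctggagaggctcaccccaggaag
The HMMR window held CCAAT 5 times, counting both strands, and the copies starting at -69 and -66 share bases. It also held TTTGAA at -28 and -22, back to back, and GGAATG at -220 and -42 relative to the start. Of all 35116 RefSeq promoters of this length, 34.6% held CCAAT, 15.2% TTTGAA, 5.90% both, and 0.359% held CCAAT 5 or more times. Of 11 mitosis genes with a promoter in the table, 10 held CCAAT, 8 TTTGAA and 7 both. The VCAN window held TTTGAA once, at 3, and neither of the other motifs. GGAATG, found in 14.0% of all promoters, occurred once in the HYAL2 window, at -38, and in 1 of the HYAL3 windows. The windows of CD44, HAS3, CEMIP and HYAL1 held none of the motifs in those letters. Of these 8 genes, HMMR had the lowest GC content, 53.3%, against 60.3 to 73.0% in the rest and a median of 58.7% over all promoters. A match of letters does not show binding.

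The 9 genes spanned more than 3 orders of magnitude in FPKM, and their order was nearly the same in every tumor. CD44 was by far the highest, with a mean of 81.7 FPKM over the 8 libraries, above 97.0% of all genes in the table. HMMR with 14.9 FPKM and HYAL2 with 13.3 FPKM came next, at percentiles 84.6 and 83.2. VCAN had a mean of 2.38 FPKM, HAS2 1.15 FPKM and HYAL3 1.08 FPKM, which placed them near the middle of the table. HAS3 with 0.329 FPKM, CEMIP with 0.232 FPKM and HYAL1 with 0.0573 FPKM were at the bottom. The tumors thus held much mRNA for receptors and for HYAL2, and little for HAS2 and HAS3. The ranges of CD44 and HMMR did not overlap, nor did those of HYAL2 and VCAN, or of HYAL3 and HAS3. In contrast, HMMR and HYAL2 overlapped, with HMMR higher in 7 of 8 libraries, and so did VCAN and HAS2, with VCAN higher in 8 of 8. HAS2 and HYAL3 could not be ordered beyond their spread either, and HAS2 was higher in 7 of 8 libraries, the exception being PBS replicate 4. HAS3 and CEMIP overlapped with HAS3 higher in 7 of 8, as did CEMIP and HYAL1 with CEMIP higher in 7 of 8.

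**Figure D1:**
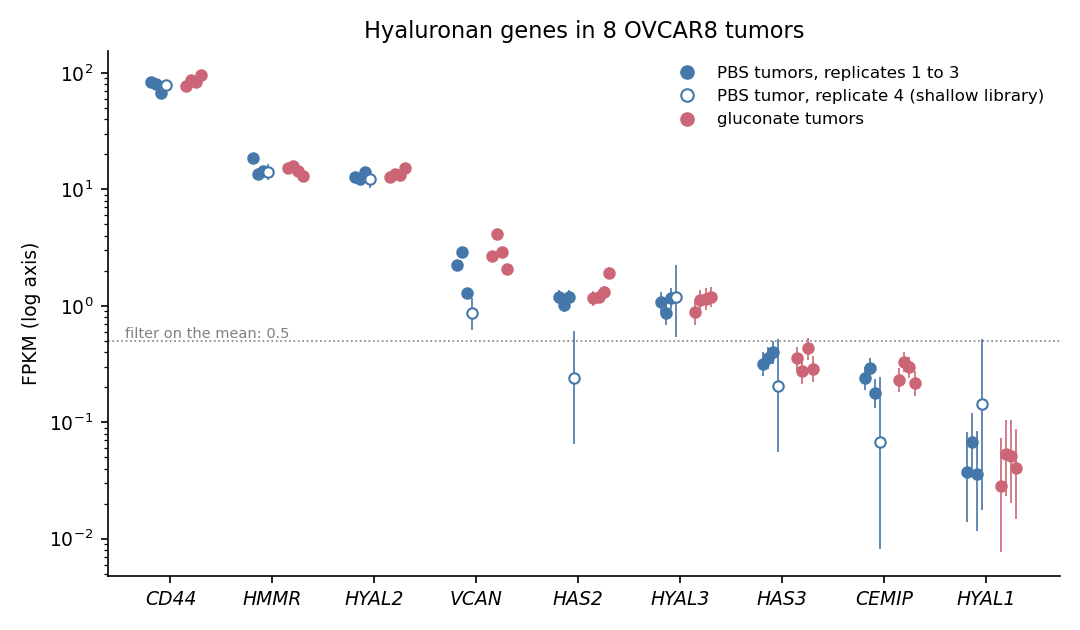
FPKM of the 9 hyaluronan genes (log axis) in each of the 8 tumors, with 95% Poisson intervals that cover counting error only. Blue points are PBS tumors, the open one being the shallow PBS replicate 4, and red points are gluconate tumors. CD44 lies between 67.6 and 95.5 FPKM in every tumor, and the groups of each gene overlap.

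Against this range of levels, gluconate and PBS tumors differed little. No member was called in limma's moderated test on log2(FPKM + 0.1), where a call needs a change of 2-fold or more with an unadjusted p under 0.05 and where changes of low genes are understated. Of the 9 genes, 6 had a mean FPKM of at least 0.5 and were tested, and HAS3, CEMIP and HYAL1 were below that minimum. Among the 12486 genes tested in all, 13 or 0.104% were called lower and 24 or 0.192% called higher. Without PBS replicate 4 these counts were 8 or 0.0641% and 3 or 0.024%. At an unadjusted p under 0.05 alone there were 577 genes or 4.62%, and 0 of the 6 members, also with limma's voom on the recovered fragments. After Benjamini-Hochberg adjustment of limma's p over all genes, 0 genes or 0% were under 0.05, the smallest adjusted p being 0.740. The groups did not overlap for 436 genes tested or 3.49%, and they overlapped for all 9 hyaluronan genes. Beside these shares, a count of 0 among 6 genes is not a result about the members. Of the 6 genes tested, 5 had a fitted difference above 0 and 1 below, with a median log2 fold change of 0.12 beside 0.07 over all genes tested, of which 8294 of 12486 were above 0. Counts above and below 0 in the lists that follow are to be read against that share. Without PBS replicate 4 the median was 0.12 in the members and -0.003 over all genes.

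**Figure D2:**
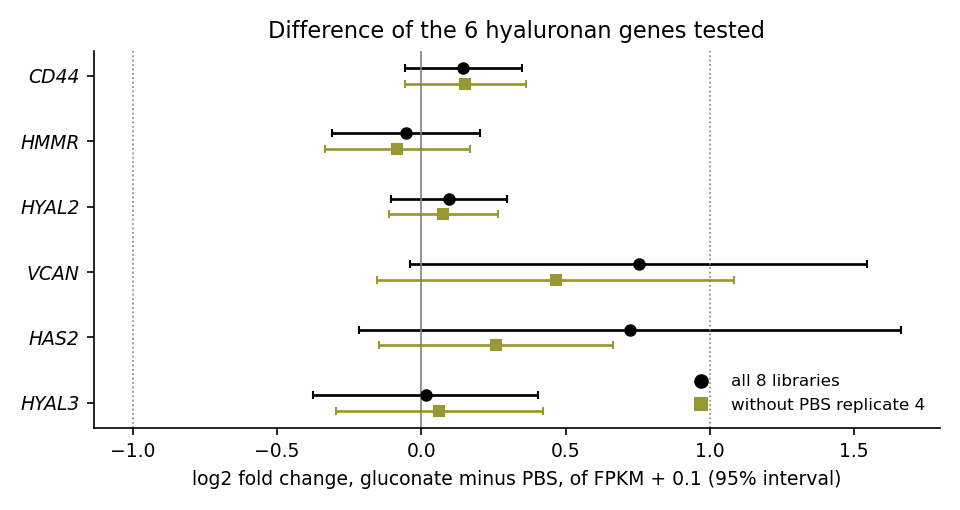
Log2 fold change of FPKM + 0.1, gluconate minus PBS, of the 6 hyaluronan genes tested, with limma's 95% interval (black, 8 libraries; olive, without PBS replicate 4). Every interval includes 0, those of HAS2 and VCAN are the widest, and both genes move toward 0 without PBS replicate 4.

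Of the synthase genes HAS2 and HAS3, HAS2 had the higher level. It encodes the synthase that makes long hyaluronan chains and is annotated on chromosome 8, minus strand, 121612116 to 121641390 (GRCh38, GENCODE 29). In PBS replicates 1, 2, 3 and 4, its level was 1.19, 1.02, 1.18 and 0.239 FPKM, from 230, 201, 200 and 4 fragments. In gluconate replicates 1, 2, 3 and 4, it was 1.16, 1.20, 1.31 and 1.93 FPKM. PBS replicate 4 was low and gluconate replicate 4 high, and the other 6 tumors lay within 1.02 to 1.31 FPKM. Group means were 0.907 ± 0.453 FPKM (SD, n = 4) in PBS and 1.40 ± 0.357 FPKM (SD, n = 4) in gluconate tumors. The log2 fold change was 0.72 (SE 0.42, 95% interval -0.21 to 1.66, adjusted p = 0.740 from limma), which did not exceed the spread between tumors. Without PBS replicate 4 it was 0.26 (95% interval -0.15 to 0.67). The two-sided exact permutation test gave p = 0.114 over 70 arrangements, and p = 0.229 without that library, where the smallest p possible was 0.0286 in each.

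HAS3, whose enzyme is known for shorter chains, is annotated on chromosome 16, plus strand, 69105564 to 69118719. Its level was 0.318, 0.359, 0.399 and 0.204 FPKM in the PBS tumors. In gluconate tumors it was 0.354, 0.278, 0.430 and 0.287 FPKM. The groups overlapped throughout, with a difference of 0.07 in mean log2(FPKM + 0.1) (p = 0.800, exact permutation test) and of -0.08 without PBS replicate 4. Within a tumor, the FPKM of HAS2 was 2.84 to 6.70 times that of HAS3 in the 7 deep libraries and 1.17 times in PBS replicate 4, where each gene rested on 4 fragments. This ratio did not differ between the groups beyond its spread, with a log2 difference of 0.74 (p = 0.143, exact permutation test), or 0.38 without PBS replicate 4 (p = 0.314).

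HYAL1, HYAL2 and HYAL3 lie side by side on chromosome 3, all on the minus strand, at 50299889 to 50312381, 50317790 to 50322906 and 50292831 to 50299468. HYAL2 encodes a hyaluronidase anchored in the cell membrane that makes the first cuts in long chains. Despite this shared place, the levels of the neighbours were far apart, and HYAL2 was 10.4 to 14.5 times HYAL3 in FPKM within each tumor. It was 181 to 450.2 times HYAL1 in the 7 deep libraries, and 85.0 times in PBS replicate 4, where HYAL1 had 2 fragments. In the PBS tumors, HYAL2 was at 12.7, 12.2, 14.1 and 12.3 FPKM. In the gluconate tumors, it was at 12.8, 13.5, 13.4 and 15.3 FPKM, the last being the highest of all 8. The log2 fold change of 0.10 (SE 0.09, 95% interval -0.10 to 0.30, adjusted p = 0.748 from limma) had an interval that reached no farther than 0.30 from 0. Its residual spread between tumors of a group was at percentile 13.4 of the genes tested, so that it was among the steadier transcripts. The annotation of TUSC2 overlaps that of HYAL2 on the same strand over 2880 bases, and TUSC2 had 7.58 to 11.1 FPKM. The HYAL2 values imply a scaling length of 2655 bases, against 4054 for its longest annotated transcript. Its level beside other genes therefore depends on the length used.

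HYAL3, a hyaluronidase relative of less clear activity, was at 1.07, 0.874, 1.16 and 1.19 FPKM in the PBS tumors. It was at 0.879, 1.12, 1.15 and 1.20 FPKM in the gluconate tumors. The log2 fold change was 0.02 (95% interval -0.37 to 0.40, adjusted p = 0.980 from limma), and its sign turned under several settings. NAA80, an N-acetyltransferase gene, overlaps HYAL3 on the same strand over 3020 bases and had 2.83 to 3.85 FPKM, so fragments of the pair may have been split by the counting and the level of HYAL3 is uncertain. The level of HYAL1, a lysosomal hyaluronidase, was only 0.0283 to 0.145 FPKM, from 2 to 11 fragments per library. Its highest value was in PBS replicate 4 and rested on 2 fragments, with a 95% Poisson interval of 0.0175 to 0.522 FPKM that holds the other 7 values. A group difference of HYAL1 was not detectable at this depth (p = 0.429, exact permutation test).

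CEMIP, on chromosome 15 from 80779343 to 80951776, encodes a protein needed for hyaluronan breakdown outside the HYAL family. It was at 0.238, 0.291, 0.178 and 0.0679 FPKM in the PBS tumors. Gluconate replicates had 0.233, 0.332, 0.297 and 0.216 FPKM. Of these, 2 lay inside the PBS range and 2 above it, with a difference of 0.39 in mean log2(FPKM + 0.1) (p = 0.257, exact permutation test) and of 0.14 without PBS replicate 4 (p = 0.514). Its relative CEMIP2, a cell surface hyaluronidase, was 38.3 to 81.9 times higher in FPKM within each of the 7 deep libraries, and 165 times in PBS replicate 4, where CEMIP had 2 fragments.

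CD44, the main hyaluronan receptor, is annotated on chromosome 11, plus strand, 35138870 to 35232402. Its transcript is spliced in many forms, which a single value per gene does not separate. The PBS tumors had 83.9, 80.4, 67.6 and 78.5 FPKM. After gluconate, the values were 77.6, 86.1, 84.2 and 95.5 FPKM, so 3 of the 4 were above the highest PBS tumor and 1 was inside the PBS range. Means were 77.6 ± 7.04 FPKM (SD, n = 4) and 85.8 ± 7.40 FPKM (SD, n = 4). The log2 fold change was 0.15 (SE 0.09, 95% interval -0.06 to 0.35, adjusted p = 0.740 from limma), and 0.15 without PBS replicate 4, so the shallow library had little weight here. The exact permutation test gave p = 0.200. In PBS replicate 4 CD44 rested on 2190 fragments and its 95% Poisson interval was 75.2 to 81.9 FPKM.

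HMMR encodes a second hyaluronan receptor, RHAMM, that also works inside the cell on the mitotic spindle, and lies on chromosome 5 from 163460203 to 163491945. The PBS tumors had 18.6, 13.6, 14.5 and 14.2 FPKM. After gluconate, HMMR was at 15.3, 15.7, 14.3 and 13.0 FPKM. PBS replicate 1 stood above the rest and the others fell within 13.0 to 15.7 FPKM. The log2 fold change was -0.05 (SE 0.11, 95% interval -0.31 to 0.20, adjusted p = 0.873 from limma), -0.08 without PBS replicate 4 and 0.05 without PBS replicate 1. HMMR thus showed no difference beyond the spread between tumors. Of 13 mitosis genes, all were tested, 7 had a fitted difference above 0 and 6 below with a median log2 fold change of 0.005, and 0 had an unadjusted p under 0.05 in limma's test or in voom, beside 4.62% of all genes in limma's test, so the count says nothing particular about them. Without PBS replicate 4, 3 of them were above 0 and 10 below, with a median of -0.04. The antisense gene HMMR-AS1 overlaps HMMR and had at most 0.240 FPKM.

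Across the 8 tumors, log2(FPKM + 0.1) of HMMR was compared with the mean log2(FPKM + 0.1) of the mitosis genes, which include TPX2, CCNB1, BUB1 and PLK1. Pearson's r was 0.65 (p = 0.0774, exact permutation test over pairings) and Spearman's rho 0.76 (p = 0.0368, exact permutation test). Without PBS replicate 4, r was 0.64 (p = 0.118) and rho 0.79 (p = 0.0480) in the same exact permutation test. Without gluconate replicates 2 and 4, the libraries farthest from the median of the mitosis genes, r was 0.57 (p = 0.269) and rho 0.54 (p = 0.297, both from the exact permutation test), so over these 6 tumors the relation did not pass the test. This was the one relation across tumors that was tested, and the range of the mitosis mean was only 4.85 to 5.09.

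**Figure D3:**
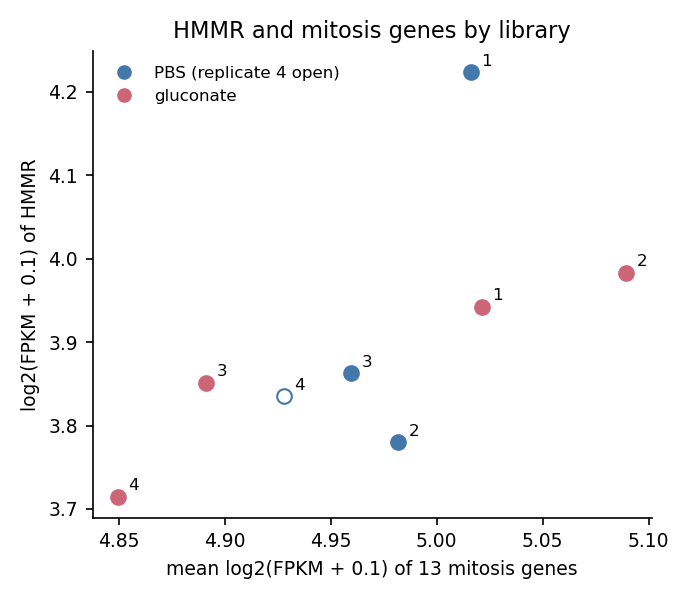
HMMR against the mean of 13 mitosis genes in each tumor, both as log2(FPKM + 0.1), with PBS tumors in blue (replicate 4 open), gluconate tumors in red and replicate numbers beside the points. Gluconate replicate 4 is lowest on both axes, and PBS replicate 1 has the highest HMMR at 4.22 without the highest mitosis mean.

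VCAN, the versican gene, encodes a large matrix proteoglycan that binds hyaluronan and is annotated on chromosome 5, plus strand, 83471465 to 83582303. Its fitted difference and that of HAS2 exceeded those of the other members tested, and their order changed between settings. The PBS tumors had 2.24, 2.90, 1.29 and 0.861 FPKM. With gluconate, VCAN was at 2.65, 4.12, 2.90 and 2.06 FPKM. Gluconate replicate 2 was the highest and PBS replicates 3 and 4 were the lowest, while PBS replicates 1 and 2 lay among the gluconate tumors. Means were 1.82 ± 0.920 FPKM (SD, n = 4) in PBS and 2.93 ± 0.867 FPKM (SD, n = 4) in gluconate tumors, and the log2 fold change was 0.75 (SE 0.35, 95% interval -0.04 to 1.54). Its unadjusted p was 0.0597 and its adjusted p 0.740 from limma, and the exact permutation test gave p = 0.171. The difference therefore did not exceed the spread between tumors. It moved with single libraries, to 0.47 without PBS replicate 4 (95% interval -0.15 to 1.08) and to 1.01 without PBS replicate 2, where VCAN was called (adjusted p = 0.604 from limma). Without PBS replicate 1 or gluconate replicate 4, limma's unadjusted p was 0.0471 and 0.0449 with adjusted p of 0.506 and 0.892. The summed fibroblast markers, of which COL1A1 made up most, were lowest in PBS replicate 4, as was VCAN. THY1, COL1A2, DCN and PDGFRA of that list were below the minimum for testing, with means of 0.0711 FPKM or less. THY1 and DCN were not lowest in PBS replicate 4. All 5 fibroblast markers tested had a fitted difference above 0, with FAP at 0.70, COL1A1 at 0.69, COL3A1 at 0.49, LUM at 0.42 and PDGFRB at 0.33 in log2 fold change. Their median was 0.49, and 0.20 with 4 of 5 above 0 without PBS replicate 4. Of all genes tested, 8294 of 12486 were above 0. None of the 5 had an unadjusted p under 0.05 in limma's test, beside 4.62% of all genes. The part of fibroblasts in the VCAN values was not tested.

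The members did not shift together in PBS replicate 4. For HAS2 and VCAN the 95% Poisson interval, which covers counting error only, lay below all 7 other tumors. HAS2 had 4 fragments where the other tumors' FPKM would have given 17.1 to 32.3 at that depth. VCAN had 42 where 62.7 to 201.1 would have been found. For HYAL2, HMMR and CD44 the values in PBS replicate 4 were inside the range of the other 7 tumors, and for HYAL3 and HAS3 the interval held all 7 other values. HAS3 and CEMIP were also lowest in this library, and for CEMIP, with 2 fragments, 3 of the 7 others were above the interval. In the same library, the link protein gene HAPLN3 and the versicanase gene ADAMTS5 were also below all 7 others, at 0.589 and 0.431 FPKM against 3.21 to 5.92 and 1.63 to 3.26 FPKM. FOXL2 was higher there, at 21.5 FPKM against 1.56 to 3.60 FPKM in the 7 deep libraries, while AMH was lower, at 1.40 against 1.73 to 4.03 FPKM. Of the carcinoma markers, WT1 was higher there, at 6.58 against 1.07 to 1.82 FPKM. EPCAM was lower, at 10.3 against 15.7 to 22.3 FPKM. The part of other cells in these values was not tested.

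**Figure D4:**
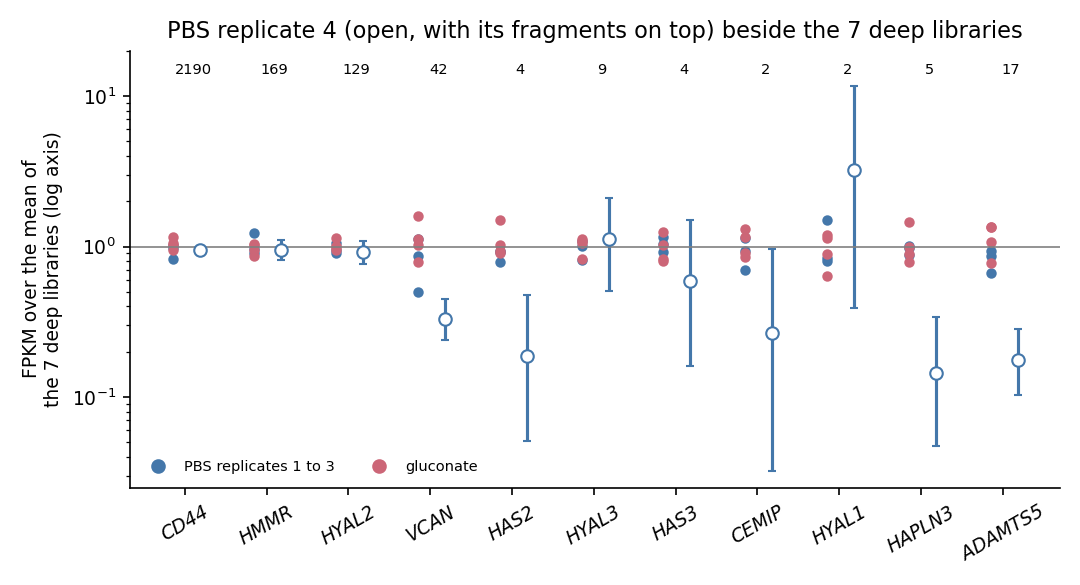
FPKM of the 9 members, HAPLN3 and ADAMTS5 divided by the mean of the 7 deep libraries (log axis), with blue points for PBS replicates 1 to 3 and red for gluconate tumors. The open point is PBS replicate 4 with its 95% Poisson interval and its fragment number on top, and this whole interval lies below the 7 others for VCAN, HAS2, HAPLN3 and ADAMTS5.

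The genes around the members were read from 6 lists of known hyaluronan partners with 45 genes, of which 40 were in the table and 19 were tested. Of the 19, 12 had a fitted difference above 0 and 7 below, with a median log2 fold change of 0.08 beside 0.07 over all genes tested. None was called in limma's test, and 0 had an unadjusted p under 0.05, also in voom, beside a background of 4.62%. Without PBS replicate 4 the medians were 0.04 and -0.003, with 11 genes above 0 and 8 below. In that fit, EZR alone had an unadjusted p under 0.05, beside 772 or 6.18% of all genes.

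The enzymes that supply the UDP-sugars were all expressed. All 7 were tested, 5 with a fitted difference above 0 and 2 below, and their median log2 fold change was 0.08. UAP1, which makes UDP-N-acetylglucosamine in the last step of its pathway, was the highest. It had 115 ± 4.80 FPKM (SD, n = 4) in PBS and 106 ± 4.12 FPKM (SD, n = 4) in gluconate tumors, and the log2 fold change was -0.12 (95% interval -0.26 to 0.02, adjusted p = 0.740 from limma). After scaling by median ratios it was -0.19, with an unadjusted p under 0.05 and an adjusted p of 0.706 from limma. UGP2 and GNPNAT1, at 32.0 to 43.0 and 33.4 to 41.5 FPKM, had log2 fold changes of 0.08 each, and of 0.0065 and 0.07 without PBS replicate 4. UGDH, which makes UDP-glucuronic acid, had 16.0 to 21.7 FPKM and a log2 fold change of 0.20 (95% interval -0.02 to 0.42). Without PBS replicate 1 it was 0.27, with an unadjusted p under 0.05 and an adjusted p of 0.491 from limma. GFPT2, one of the enzymes for the first step toward UDP-N-acetylglucosamine, varied most, from 8.00 to 17.6 FPKM, with a log2 fold change of -0.15 and of -0.33 without PBS replicate 4. Within a tumor, the FPKM of UGDH was 10.5 to 19.0 times that of HAS2 in the 7 deep libraries, and 71.3 times in PBS replicate 4, where HAS2 had 4 fragments.

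Of 4 further breakdown genes in the table, 3 were tested and all 3 had small differences above 0. HYAL4, at or under 0.0120 FPKM, was not tested. GUSB, a lysosomal enzyme that trims hyaluronan fragments, had 28.0 to 35.1 FPKM. HEXA had 12.0 to 15.6 FPKM, and CEMIP2 11.2 to 17.7 FPKM with a log2 fold change of 0.24 (95% interval -0.05 to 0.53). Without gluconate replicate 2 that of CEMIP2 was 0.33, with an unadjusted p under 0.05 and an adjusted p of 0.881 from limma. Of the other receptors, LAYN, for the membrane lectin layilin, was the one expressed, at 17.8 to 34.6 FPKM. Its log2 fold change was 0.27 (95% interval -0.11 to 0.66, adjusted p = 0.740 from limma). TLR4, STAB1, LYVE1 and STAB2, which mark innate immune, scavenger and lymphatic endothelial cells, stayed at or under 0.225, 0.104, 0.0153 and 0.00565 FPKM. With no filter on low values, STAB1 had a log2 fold change of 0.31 with an unadjusted p under 0.05 and an adjusted p of 0.802 from limma. CD44 exceeded LAYN 2.65 to 3.80 times in FPKM within each tumor.

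Among matrix partners, 2 of 13 genes in the table were tested, PTX3 and HAPLN3. PTX3, a pentraxin that helps to crosslink hyaluronan, was at 12.7 to 16.0 FPKM with a log2 fold change of -0.07, and of -0.02 without PBS replicate 4, which had the highest value. HAPLN3 had 3.59, 4.10, 3.95 and 0.589 FPKM in the PBS tumors. The gluconate tumors had 4.00, 3.21, 3.60 and 5.92 FPKM, and its log2 fold change of 0.70 (95% interval -0.50 to 1.90) was 0.07 without PBS replicate 4. Other large hyaluronan-binding proteoglycans of the versican family were hardly detected, with ACAN, BCAN and NCAN at or under 0.00489, 0.0227 and 0.131 FPKM. ITIH3 and ITIH4, whose proteins donate heavy chains to hyaluronan or are related to those that do, had means of 0.240 and 0.192 FPKM.

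Of 6 protease genes known to cut versican, ADAMTS1 and ADAMTS5 were tested. ADAMTS1 was high, at 38.7 to 73.6 FPKM, with a log2 fold change of -0.09, and of -0.21 without PBS replicate 4. ADAMTS5 had 2.26, 2.10, 1.63 and 0.431 FPKM in the PBS tumors. With gluconate, it was at 1.89, 2.62, 3.26 and 3.26 FPKM. Its log2 fold change was 0.92 (SE 0.44, 95% interval -0.07 to 1.91, unadjusted p = 0.0646, adjusted p = 0.740 from limma), and 0.43 without PBS replicate 4. Its unadjusted p was also under 0.05 with a pseudocount of 1, at 0.58, and after quantile normalization, at 0.77, with adjusted p of 0.743 and 0.688 from limma. It was called without PBS replicate 1, at 1.15 (adjusted p = 0.506), and without PBS replicate 2, at 1.11 (adjusted p = 0.604, limma for both). ADAMTS9 and ADAMTS4 had means of 0.125 and 0.0513 FPKM.

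The proteins that tie the tail of CD44 to actin were represented by EZR, MSN and RDX, at 195 to 359, 109 to 124 and 33.9 to 41.1 FPKM, and by ANK3 at 0.356 to 0.717 FPKM. MSN had the same mean of 114 FPKM in both groups. EZR, the ezrin gene, had a log2 fold change of -0.10 and of -0.25 without PBS replicate 4 (unadjusted p = 0.0477, adjusted p = 0.802 from limma). NF2 was below the minimum, with a mean of 0.444 FPKM. The study's own list of hyaluronan metabolism genes, drawn from other datasets, shares 8 of the 9 genes analysed. Of its 14 genes followed here, 10 were tested, 8 with a fitted difference above 0 and 2 below, with a median log2 fold change of 0.06, and 0 with an unadjusted p under 0.05 in limma's test or voom, which is near the 4.62% of all genes. CHP1, the gene that the study took from it, had 24.2 ± 0.384 FPKM (SD, n = 4) in PBS and 26.1 ± 1.53 FPKM (SD, n = 4) in gluconate tumors, with a log2 fold change of 0.10 (adjusted p = 0.740 from limma).

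**Figure D5:**
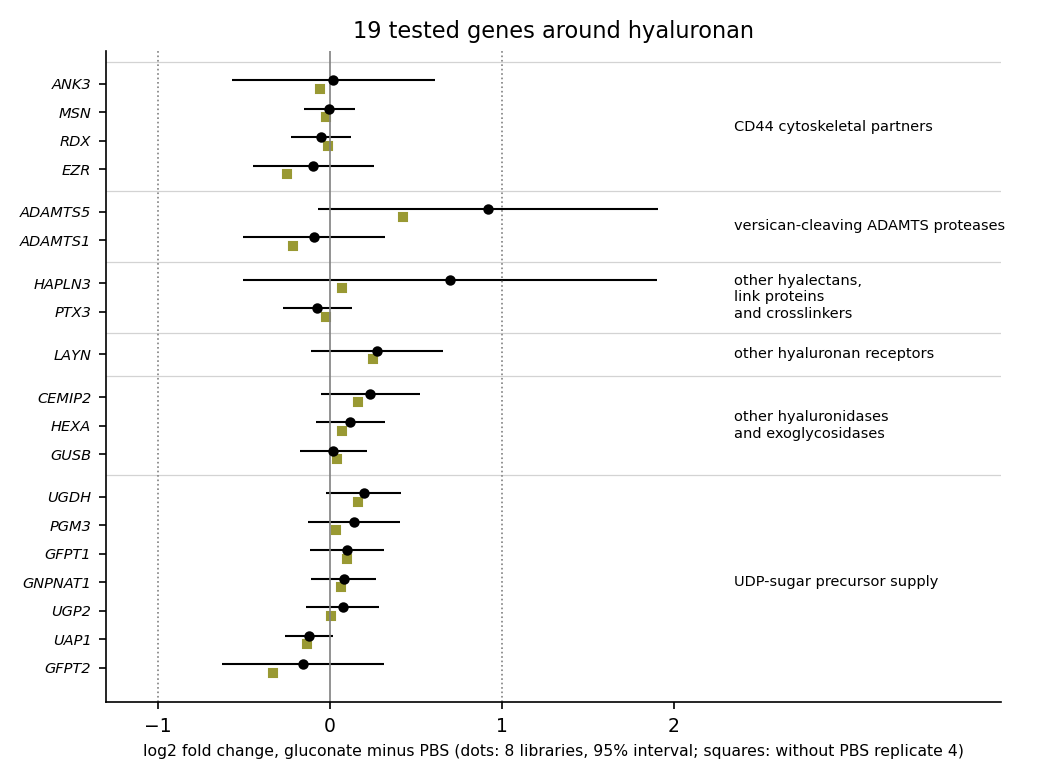
Log2 fold change of FPKM + 0.1, gluconate minus PBS, of the 19 tested partner genes in 6 lists, with limma's 95% interval over 8 libraries (black dots) and the value without PBS replicate 4 (olive squares). Every 8-library interval includes 0, and ADAMTS5 and HAPLN3 move farthest toward 0 without PBS replicate 4.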

How the data were processed

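RNA of 8 orthotopic tumors was extracted with TRIzol, selected for polyA and sequenced, per the labels. The authors deposited FPKM values per gene, on GRCh38, while the aligner, counter, annotation and filters are not given in the sources used here. The columns are headed C and T, read as PBS and gluconate because the study plots the ratio of T to C for gluconate against PBS and only these groups have 4 libraries. Whole fragments were recovered from the steps between FPKM values (100.0% of values within 0.001 fragments). Of 15002 genes above 0 in every library, 99.74% gave a length that was whole within 0.01 bases. Groups were compared, without pairing, with limma 3.58.1 in R 4.3.3 (lmFit, eBayes with a trend) on log2(FPKM + 0.1) over genes whose mean FPKM reached 0.5. The two-sided exact permutation test served for single genes. The study's text speaks of treated cells for this experiment and the labels of tumors, and the labels were followed. Correlations between same-numbered libraries were -0.18, 0.084, 0.17 and -0.057. They gave no sign that replicate numbers pair the tumors but cannot exclude it. The study gives 4 mice per group for the treated tumors, but no label says whether the libraries of a group came from separate mice. The p-values therefore measure the spread between these libraries, which may be technical. Locations came from GENCODE 29. All members were named, and from each other list the called genes, those with an unadjusted p under 0.05, up to 4 with the highest mean and, chosen after their values were seen, genes named as near 0, as most variable or as lowest in one library. One gene of the lists is not reported here. The members and lists were chosen with earlier results of these data known. Alternatives were other pseudocounts, filters and scalings, voom, a fit with a replicate block, and fits that each leave out 1 library.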

Additional observations from a re-analysis of the deposited data

Results flagged for a closer look

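In groups of 4 tumors, a library was marked where its gap to the nearest other library was too large a share of the group's range by Dixon's 95% critical value. Chance marks about 1 in 20 groups, and 2 of the 56 groups examined over 28 genes were marked. HMMR was at 18.6 FPKM in PBS replicate 1 against 13.6 to 14.5 FPKM in the other PBS tumors. HAPLN3 was at 0.589 FPKM in PBS replicate 4, from 5 fragments, against 3.59 to 4.10 FPKM in the other PBS tumors.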

How the results depend on the processing

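Over 16 alternatives, CD44, HYAL2, HAS2 and VCAN kept a fitted difference above 0 in all, with ranges of the log2 fold change from 0.08 to 0.19, 0.03 to 0.14, 0.26 to 0.90 and 0.47 to 1.01. HYAL3 turned to -0.048 with median ratios and -0.095 with quantile normalization, and HAS3 to -0.078 in the permutation difference without PBS replicate 4. Leaving out 1 library gave -0.072 to 0.11 for HYAL3 and -0.10 to 0.047 for HMMR. None of the 6 members had an unadjusted p under 0.05 in any alternative other than VCAN, which did in 4. One was the replicate block, with 0.75 (unadjusted p = 0.00934, adjusted p = 0.758, both from limma). Whether the replicate numbers pair the tumors is not known. Leaving out 1 library gave 0 to 1 members and 0 to 1 partner genes called. Over all genes, it gave 5 to 46 lower and 3 to 64 higher. The counts lower and higher were 3 and 5 with a pseudocount of 1, 20 and 9 after quantile normalization, 7 and 9 with voom, and 0 and 0 at an adjusted p under 0.05. With no filter, 61 were higher. Under the replicate block, 15 genes were lower and 32 higher. The correlation of HMMR with mitosis genes without its 2 farthest tumors was added after the data were seen. The cause of these shifts was not tested. Depth limits HYAL1, HAS3, CEMIP and HAS2 in PBS replicate 4, where 2 to 4 fragments were counted.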
